A study of Mus musculus with 4 samples.

Results

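The cells described here are barcodes of mouse colon tissue that carry the RNA of macrophages or monocytes together with counts of the inflammatory genes Cxcl2 and Il1b or of monocyte genes. They were chosen by their own counts. Barcodes were kept from 200 detected genes upward if mitochondrial genes gave no more than 25% of their counts, and a kept barcode was myeloid when at least 2 of C1qa, C1qb, C1qc, Cd68, Adgre1, Csf1r, Lyz2 and Ms4a7 were detected and Cd3e, Cd79a, Col1a1, Epcam and Flt3 were all at 0. A myeloid barcode was selected when the summed counts of Il1b, Ly6c2, Plac8, Ccr2, S100a4 and Cxcl2 (the inflammatory sum) were at least 2 and larger than the summed counts of Mrc1, Pf4, F13a1, Stab1, Fcrls and Ccl8 (the resident sum). This gave 1100 selected cells among 2761 myeloid and 38852 kept barcodes. The other main myeloid group, called residents below, was the 1502 barcodes with a resident sum of at least 2 that exceeded the inflammatory sum, and 159 myeloid barcodes met neither definition.

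The libraries were droplet single-cell RNA libraries of enzymatically dissociated colon, 2 from control mice and 2 from mice treated with CCl4 (carbon tetrachloride), which damages hepatocytes and on repeated dosing scars the liver. CCl4 treatment started at 6 weeks of age and lasted 6 weeks in mice kept free of specific pathogens. The labels give no age, vehicle or duration for the control mice, no strain or sex for either group, and no number of animals per library, so the p-values below measure only the spread between libraries, which may be technical. The selected cells numbered 290 and 259 in control libraries 1 and 2 and 281 and 270 in CCl4 libraries 1 and 2.

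Macrophages of the colon are renewed in large part from blood monocytes, which arrive with Ly6c2 and Ccr2 and lose both as they take up MHC class II and the complement genes C1qa, C1qb and C1qc. When microbial products or tissue damage are sensed, NF-kB and other signals switch on Cxcl1, Cxcl2 and Cxcl3, which draw neutrophils through the receptor CXCR2. The same signals switch on Il1b, whose product is cut into its active form after assembly of the NLRP3 inflammasome. Interferon beta, the product of Ifnb1, is switched on by sensing of nucleic acids or bacterial lipids and acts on neighbouring cells through a shared type I interferon receptor.

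The promoters of 5 genes on which the results turn are printed as the 250 bases before the transcription start of each, 5′ to 3′ on the gene's strand, from RefSeq on GRCm38.p6. Cxcl2 (chr5:90903649-90903898, plus strand), Cxcl1 (chr5:90890995-90891244, plus strand) and Cxcl3 (chr5:90785851-90786100, plus strand) are neighbouring, related genes. Il1b (chr2:129371140-129371389, minus strand) and Ifnb1 (chr4:88522795-88523044, minus strand) lie elsewhere. Capitals mark matches to a loose form of the NF-kB motif (GGG, any 5 bases, CC) on either strand, and matches that overlap run together.
Cxcl2: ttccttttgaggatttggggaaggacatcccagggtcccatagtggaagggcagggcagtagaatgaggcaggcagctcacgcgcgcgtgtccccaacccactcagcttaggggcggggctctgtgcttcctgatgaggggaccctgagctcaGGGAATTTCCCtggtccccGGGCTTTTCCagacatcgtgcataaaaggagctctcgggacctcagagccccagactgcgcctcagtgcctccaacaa
Cxcl1: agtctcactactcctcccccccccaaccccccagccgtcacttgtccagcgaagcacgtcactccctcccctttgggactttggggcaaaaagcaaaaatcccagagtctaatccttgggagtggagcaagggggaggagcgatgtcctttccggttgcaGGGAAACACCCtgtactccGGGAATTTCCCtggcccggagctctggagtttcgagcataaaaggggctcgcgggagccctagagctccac
Cxcl3: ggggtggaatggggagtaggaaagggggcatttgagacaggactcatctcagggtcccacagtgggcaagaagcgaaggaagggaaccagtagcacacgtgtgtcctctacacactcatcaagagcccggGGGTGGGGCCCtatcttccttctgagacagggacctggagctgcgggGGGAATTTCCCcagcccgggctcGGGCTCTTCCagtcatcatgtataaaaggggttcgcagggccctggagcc
Il1b: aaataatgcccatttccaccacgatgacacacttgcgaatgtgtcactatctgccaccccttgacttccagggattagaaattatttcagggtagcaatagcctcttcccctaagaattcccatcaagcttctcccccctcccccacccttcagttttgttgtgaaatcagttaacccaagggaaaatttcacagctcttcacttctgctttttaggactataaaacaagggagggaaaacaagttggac
Ifnb1: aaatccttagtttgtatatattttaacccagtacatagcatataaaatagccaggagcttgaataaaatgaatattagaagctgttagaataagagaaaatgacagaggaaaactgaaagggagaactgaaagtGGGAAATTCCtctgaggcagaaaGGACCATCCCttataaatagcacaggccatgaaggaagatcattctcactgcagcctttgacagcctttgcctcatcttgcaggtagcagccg
The loose motif stood in 14959 of 32536 promoters of this length (46.0%), so its presence says little about a single gene. The 10 letters that open the first capital run of Cxcl2, a string searched after these promoters had been read, were in all 3 CXC chemokine promoters. Their first base lay 97, 71 and 73 bases before the start of Cxcl2, Cxcl1 and Cxcl3, and they were in 28 of all 32536 promoters (0.0861%). The Il1b window held no match to the loose motif. None of the 5 windows held the interferon-type motif (GAAA, any 2 bases, GAAA, in 2.98% of promoters) or the AP-1 letters TGANTCA (6.73%). The Ifnb1 window held GAAAACTGAAA, where 3 bases part the GAAA runs, a spacing that this motif misses. The missing match therefore does not show that Ifnb1 lacks sites of this type. The C/EBP letters TTNNGNAA (36.8% of promoters) were found once in Cxcl2 and once in Il1b. A match is a run of letters and not a measured binding site.

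By their counts, the selected cells were led by Cxcl2 and Il1b and carried few counts of the monocyte genes in the rule. Cxcl2 made up 88.5% of the inflammatory sum over all selected cells, Il1b 6.87%, S100a4 1.88%, Ccr2 1.31%, Plac8 0.962% and Ly6c2 0.499%. Cxcl2 was detected in 921 of 1100 cells, Il1b in 539, both in 462 (42.0%), Ccr2 in 326, S100a4 in 242, Plac8 in 190 and Ly6c2 in 58. Without Cxcl2 in the sum only 461 of the 1100 cells would have been selected, and without Ly6c2 1097 would. The median inflammatory sum was 45 and the highest 1084. At the edge of the rule, 25 cells had a sum of 2 and 32 led the resident sum by 1, while just outside it 19 barcodes had a sum of 1 above a resident sum of 0, 31 had equal sums of at least 2 and 36 had a resident sum larger by 1.

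The markers of the working name, Il1b, Ly6c2, Lyz2 and Plac8, were not all detected in a larger share of these cells than of other cell types. All of these but Lyz2 belong to the inflammatory sum, and Lyz2 and C1qa are among the 8 myeloid genes of which the selected cells had to carry at least 2 and T cells fewer than 2, so their shares describe the selection. Lyz2, the macrophage lysozyme, was detected in 94.4 to 96.9% of the selected cells per library, against 1.11 to 4.82% of T cells (barcodes with Cd3e, none of the other exclusion genes and fewer than 2 of the myeloid genes; epithelial cells and fibroblasts were taken likewise by Epcam and Col1a1). Il1b was detected in 42.1% and 45.9% of them in the control libraries and in 55.5% and 52.6% in the CCl4 libraries, against 0 to 1.20% of T cells. Ly6c2, by contrast, was detected in 4.48%, 6.95%, 5.34% and 4.44%, in the order control 1, control 2, CCl4 1, CCl4 2, and in 7.43%, 7.78%, 5.26% and 8.43% of T cells, some of which are known to make it. Its share in epithelial cells was 2.18 to 7.33% and in fibroblasts 1.33 to 3.07%, so the share alone does not set the selected cells apart. Its counts were uneven within the selection. Ly6c2 stood at 826.4, 428.4, 179.7 and 60.6 CPM in cells led by the monocyte genes of the rule, itself among them. In cells led by Cxcl2 and Il1b it stood at 58.5, 16.2, 32.1 and 18.6 CPM. Whether a small part of the cells expressed it was not tested. Plac8 was detected in 17.0 to 17.8% of the selected cells, in 14.7 to 27.8% of T cells and in 58.4 to 61.3% of epithelial cells. The median total was 3744 to 4344 counts in the selected cells, 3243 to 3642 in T cells, 6226 to 6846 in epithelial cells and 4071 to 4546 in fibroblasts. Among genes of mature tissue macrophages, C1qa was detected in 82.2 to 85.3% of the selected cells, the MHC class II gene H2-Ab1 in 90.4 to 93.1% and the mannose receptor gene Mrc1 in 63.8 to 73.4%. S100a8, a calprotectin gene of neutrophils and fresh monocytes, was detected in 0.345 to 0.772%. A longer list of neutrophil markers is given with other cell types below. Beside residents, Ly6c2 averaged 97.7 against 9.73 CPM, Plac8 185.7 against 45.1 and Ccr2 252.4 against 57.8. The rule split the groups on these genes, so these gaps describe the selection. Because the detected shares do not bear out the monocyte part of the working name, the barcodes are named here only by the rule. They are called selected cells led by Cxcl2.

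**Figure D1:**
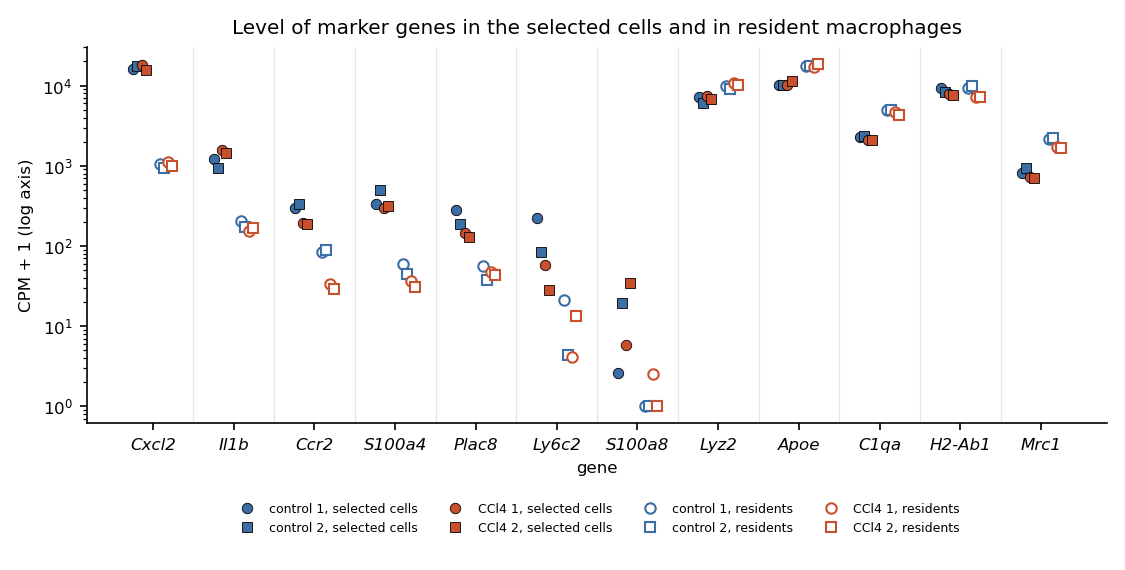
Level of rule genes and macrophage markers in CPM plus 1 (log axis) in the selected cells (filled) and in residents (open), one point per library. Cxcl2 lies between 15745 and 18103 CPM in the selected cells and Ly6c2 between 27.2 and 223.8, while C1qa, H2-Ab1 and Mrc1 are high in both groups.

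The rule takes in cells of more than one kind. In 914 of the 1100 cells (83.1%) the counts of Il1b and Cxcl2 exceeded those of Ly6c2, Plac8, Ccr2 and S100a4, in 180 (16.4%) the reverse held, and 6 were tied. As a description of these sides of the rule, Cxcl1 averaged 2540 CPM over libraries in the Cxcl2 and Il1b side and 58.9 in the monocyte-gene side. The chemokine gene Ccl4 averaged 3255 against 111.6 CPM, the anti-inflammatory cytokine gene Il10 averaged 744.6 against 22.6 CPM and Tnf 824.1 against 76.0 CPM. Apoe averaged 12662 against 1578 CPM, and C1qa was between 2494 and 2734 CPM on the first side and between 131.9 and 746.0 on the second. The monocyte-gene side held the higher levels of Fabp4 (977.4 against 69.6 CPM), Plvap (664.7 against 44.1) and Flt1 (442.7 against 35.6), all known in vessel endothelium. Flt1 on that side was 117.0, 118.2, 441.2 and 1094 CPM, against 51.4, 55.3, 16.9 and 18.6 on the other. Its mean on the monocyte-gene side thus rested on the CCl4 libraries, above all the second. Plvap was 486.3, 172.4, 674.0 and 1326 and Fabp4 917.8, 197.0, 1176 and 1618. The same side held more of the integrin gene Itgb7 (178 to 314 CPM against 31.3 to 42.8). Of its 180 cells, 72 had at least 2 markers of lymphoid, mast, stromal, endothelial or glial cells, compared with 170 of the 914. Among the 72, 18 had at least 2 endothelial markers and 27 at least 2 of natural killer and innate lymphoid cells. At least 2 dendritic cell markers, which are outside those lists, were detected in 44 of the 180 and in 146 of the 914.

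RNA of other cell types was present at levels that differed between libraries. At least 2 of 12 epithelial markers were detected in 21.0% and 24.3% of the selected cells in controls and in 50.2% and 53.3% with CCl4. At least 2 of 8 plasma cell markers were detected in 64.5%, 74.1%, 54.1% and 43.3%, and the summed level of these markers was 13548, 4865, 3045 and 485.0 CPM. One barcode held 3901 of the 5513 Igkc counts in control library 1, a large part of that library's total. Endothelial markers summed to 375.8, 134.2, 344.5 and 697.0 CPM and red cell markers to 37.0, 477.3, 57.1 and 35.3 CPM. At least 1 of 12 neutrophil markers was detected in 28.6%, 31.3%, 39.9% and 44.4% of the selected cells, and at least 2 in 3.79%, 5.02%, 7.12% and 7.04%. Their summed level was 186.7, 274.0, 358.4 and 386.4 CPM, and 169.5, 165.2, 303.8 and 235.3 CPM in residents. That list holds Il1r2, and the part of neutrophils in these values was not tested. Of 12 markers of mast cells and basophils, 7 were at 0 in all libraries. The summed counts tested below were 1259129 to 1436972 per library, the median mitochondrial share of the selected cells was 2.42 to 3.24%, and no barcode shared its whole profile with one of another library. Barcode names are numbers that restart in each library, and 3 to 8 names of selected cells recurred between any pair of libraries.

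Set beside the residents, the selected cells held more RNA of the neutrophil-attracting chemokines Cxcl1 and Cxcl3, of 10 of 31 NF-kB targets and of single genes such as Nlrp3, Il10 and Il1rn. The rule split both groups on the inflammatory and resident sums of the same cells, so these differences describe the selection and carry no test. All values are CPM in the order control 1, control 2, CCl4 1, CCl4 2. Cxcl1 stood at 1927, 2577, 2613 and 1170 in the selected cells and at 87.2, 82.2, 90.3 and 104.0 in residents, a mean log2 ratio of 4.30 after adding 10 CPM. Every library was well apart, with the smallest gap in CCl4 library 2. Cxcl3 stood at 170.2, 145.3, 126.0 and 139.8 against 0 to 1.89 in residents. Because Cxcl1, Cxcl2 and Cxcl3 have similar sequences, reads could have been divided among them, and their separate values are uncertain to that extent. Clec4e, the receptor Mincle that senses mycobacterial lipids and dead cells, stood at 90.6, 80.2, 156.6 and 147.9 against 0 to 3.92. Ptgs2, which makes prostaglandin precursors, stood at 175.7, 301.8, 450.3 and 426.1 against 11.7 to 38.7.

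Il10, an anti-inflammatory cytokine gene, stood at 525.6, 621.9, 635.4 and 638.8 CPM against 58.6 to 71.4 in residents, and Il1rn, the IL-1 receptor antagonist, at 99.3, 152.5, 235.2 and 156.0 against 9.68 to 27.5. Il1r2, the decoy receptor for IL-1, averaged 155.7 against 26.7. The sensor gene Nlrp3 averaged 448.6 against 77.5 and was detected in 39.7 to 54.1% of the selected cells, in 11.5 to 14.9% of residents and in 0 of 83 to 180 T cells per library, which allows a share of up to 1.67 to 3.61%. Other leading genes were Fn1 (fibronectin, mean log2 ratio 3.59), the metalloprotease genes Mmp12 (3.11) and Adam8 (2.72), Cytip (2.69), the signalling gene Malt1 (2.58), Gpr132 (2.50), the redox gene Txnrd1 (2.50), Itgb7 (2.49) and the lipid droplet gene Hilpda (2.46). The Mmp12 ratio ranged from 0.01 in CCl4 library 2 to 4.60 in CCl4 library 1.

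By list, 10 of 31 NF-kB targets and feedback genes were at least 2-fold higher in the selected cells in all 4 libraries, among them Nfkb1, Tnfaip3, Cd83 and Plaur, and 0 were 2-fold lower. Of all 9007 genes with at least 10 CPM in either group, 1.57% were 2-fold higher and 0.699% 2-fold lower, and the rule chose on this contrast. Bcl2a1a, Bcl2a1b and Bcl2a1d were also among the 10, but they are near-identical copies whose counts are uncertain one by one. Outside the rule genes, 6 of 15 chemokines were 2-fold higher (Cxcl1, Cxcl3, Ccl3, Ccl4, Ccl5, Ccl7), as were 4 of 17 cytokines (Il1a, Il1rn, Il6, Il10) and 4 of 26 sensing and inflammasome genes (Cd14, Nlrp3, Clec4d, Clec4e). The median log2 ratio of those 26 was −0.24, below the −0.16 over all genes. Of 13 classical monocyte genes outside the rule, 4 were 2-fold higher (Fn1, Hp, Thbs1, S100a11). The 13 MHC class II genes had 0 past 2-fold in either direction and a median log2 ratio of 0.04, and the 22 MHC class I genes 0 and −0.16.

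**Figure D2:**
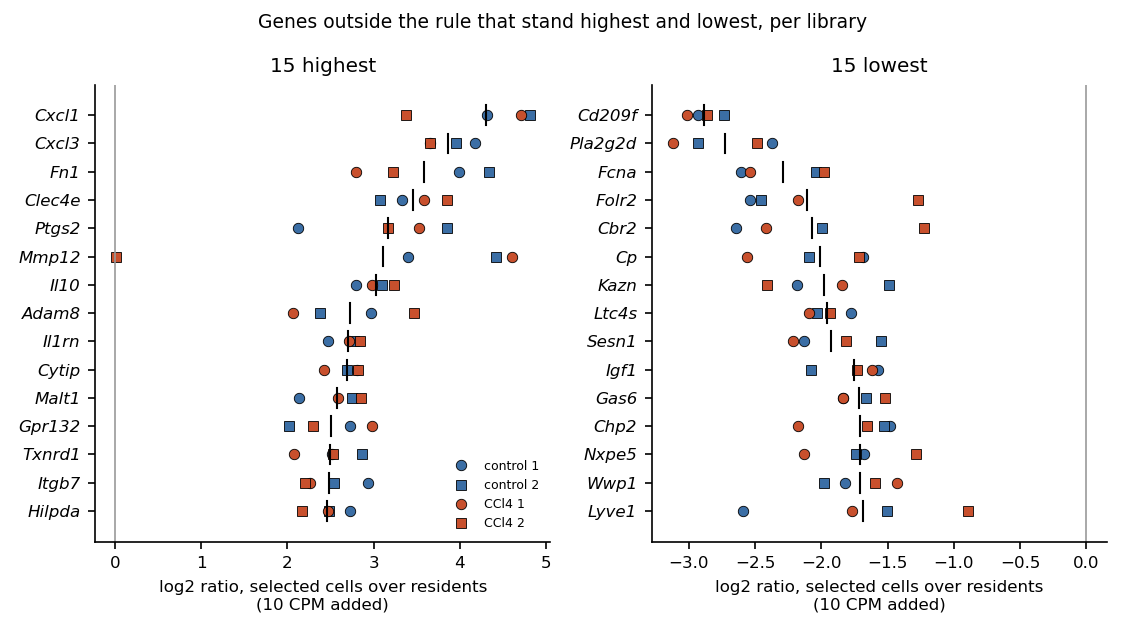
Log2 ratio of the selected cells over residents with 10 CPM added, one point per library and a bar at the mean, for the 15 highest and 15 lowest genes outside the rule. Cxcl1 leads with a mean of 4.30 and Cd209f is lowest at −2.89, and the Mmp12 point of CCl4 library 2 lies at 0.01.

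Lowest against residents stood Cd209f, Pla2g2d, Fcna and Folr2. Cd209f, a C-type lectin gene, stood at 4.73, 1.59, 2.09 and 3.68 CPM against 102.4, 67.2, 87.9 and 89.8 in residents, a mean log2 ratio of −2.89. Pla2g2d, a secreted phospholipase gene, averaged 3.46 against 80.3 CPM (−2.73) and the ficolin gene Fcna 7.85 against 78.9 (−2.29). Folr2, the folate receptor beta gene, averaged 44.9 against 229.1 CPM (−2.11) and Lyve1, the hyaluronan receptor gene, 28.7 against 116.5 (−1.69). Growth factor genes followed, Igf1 with 47.6 against 181.9 CPM and Gas6 with 115.5 against 403.1. The remaining genes of the 15 lowest were Cbr2 (−2.07), the copper oxidase gene Cp (−2.01), Kazn (−1.98), Ltc4s, which makes leukotriene C4 (−1.96), Sesn1 (−1.93), Chp2, Nxpe5 and Wwp1 (each −1.71). Of the 12 genes in the list named iron and haem, 4 were 2-fold lower in all libraries (Slc40a1, Hpgd, Cp, Trf). The name does not cover Hpgd, whose product breaks down prostaglandins. Of 18 macrophage maturation genes 4 were 2-fold lower (Maf, Selenop, Cx3cr1, Fcgrt) while Itgax and Cd14 were 2-fold higher.

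The selected cells made up a smaller share of all kept barcodes with CCl4 and a larger share of myeloid barcodes, but neither difference could pass a test with 2 libraries a group and each turned sign in an alternative. They were 3.36% and 2.95% of kept barcodes in controls and 2.54% and 2.59% with CCl4, a mean of 3.16% ± 0.291 (SD, n = 2) against 2.57% ± 0.034 (n = 2). The groups did not overlap (exact two-sided permutation p = 0.333, the smallest that 4 libraries allow). With stricter limits on barcodes (500 genes, 10% mitochondrial counts) the shares were 4.28% and 3.77% against 3.76% and 3.82%, which overlapped (−0.234 points, exact permutation p = 0.667). Residents went from 4.73% ± 0.261 to 3.16% ± 0.113 and all myeloid barcodes from 8.32% ± 0.509 to 6.12% ± 0.188 of kept barcodes. Among myeloid barcodes the selected cells were 38.8% and 37.1% in controls and 40.7% and 43.3% with CCl4, a difference of 4.03 percentage points (exact permutation p = 0.333). Without barcodes that held 2 or more markers of another cell type it was −0.984 points, and the difference in the share of kept barcodes −0.136 points (exact permutation p = 1.0 for both). With only barcodes lacking Epcam in the denominator, the difference of −0.590 points in the share of kept barcodes turned to 0.173 points (4.64% and 4.05% against 4.505% and 4.53%, exact permutation p = 1.0).

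**Figure D3:**
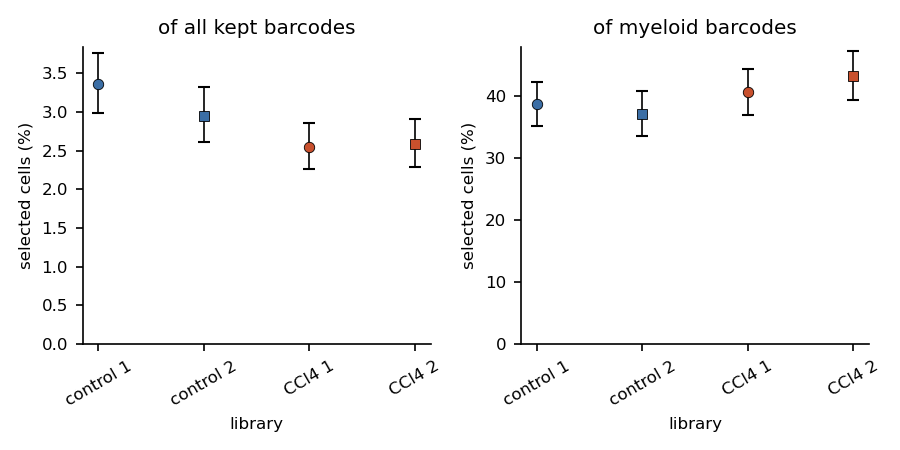
Selected cells as a percentage of all kept barcodes (left) and of myeloid barcodes (right) in each library, with exact 95% binomial intervals that cover counting error only. Both CCl4 libraries lie below the controls on the left (2.54% and 2.59% against 3.36% and 2.95%) and above them on the right (40.7% and 43.3% against 38.8% and 37.1%).

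Within the selected cells, few genes passed the test between CCl4 and control. Counts were summed over the cells of each library and fitted with edgeR, and 6 of 9250 genes tested had an adjusted p under 0.05 (0.0649%). Ifnb1, Thbs1, Muc2 and Sycn rose (0.0432% of genes tested) and Slc15a2 and Retnla fell (0.0216%). At an unadjusted p under 0.05 there were 627 genes. Values are normalised CPM per library, in the order control 1, control 2, CCl4 1, CCl4 2, and log2 ratios are of CCl4 over control with their standard error. Data were simulated at these depths for 9250 genes, with the changed genes drawn only from those above a minimum mean level. The same test recovered 61 of 100 genes changed 2-fold and 90 of 100 changed 3-fold, with 7 false calls. Changes of 2-fold were thus often missed even in the more abundant genes. Smaller changes, and changes in genes below that level, were not simulated. Leaving out control library 1, control library 2, CCl4 library 1 or CCl4 library 2 gave 12, 22, 102 and 54 called genes. The lone library of a group is then assumed to vary like the other group's, and 2, 4, 6 and 6 of the original 6 genes were among them.

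Ifnb1, the interferon beta gene (chromosome 4, 88522025 to 88522774, minus strand), had the largest rise of the 4 genes that passed. It stood at 9.78, 13.6, 117.9 and 59.6 CPM, from 12, 17, 163 and 81 counts. Both CCl4 libraries were above both controls, and the first CCl4 library was the higher of the pair. The mean went from 11.7 ± 2.73 to 88.8 ± 41.3 CPM (SD, n = 2 each), a log2 ratio of 2.91 ± 0.384 (SE, adjusted p = 0.0143). The RNA came from few cells. It was detected in 4 of 290, 5 of 259, 15 of 281 and 14 of 270 selected cells, which is 1.38% (exact 95% interval 0.377 to 3.49), 1.93% (0.630 to 4.45), 5.34% (3.02 to 8.65) and 5.19% (2.86 to 8.55). In CCl4 library 1 a single cell held 49 of the 163 counts, and without the highest cell of each library the log2 ratio was 3.21 (adjusted p = 0.0172). Ifnb1 was detected in 0 T cells and 0 fibroblasts, which allows shares of up to 1.67 to 3.61% of T cells and 0.146 to 0.180% of fibroblasts per library, and in 2 or 3 residents per library. Without control library 1 the log2 ratio was 2.69 and no longer passed (adjusted p = 0.226), and leaving out the highest doublet scores gave 2.96 (adjusted p = 0.128).

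Thbs1, which encodes the matrix protein thrombospondin-1 (chromosome 2, 118111876 to 118127133, plus strand), stood at 137.7, 213.4, 430.5 and 486.1 CPM. The CCl4 libraries lay at about the same level and above both controls, with means of 175.5 ± 53.5 and 458.3 ± 39.3 (SD, n = 2 each), a log2 ratio of 1.38 ± 0.185 (SE, adjusted p = 0.0143). It was detected in 38, 42, 61 and 60 selected cells (13.1%, 16.2%, 21.7% and 22.2%). In residents it stood at 31.9, 28.5, 64.3 and 68.0 CPM and also rose (log2 ratio 1.13, adjusted p = 0.0376). Thbs1 is widely made outside macrophages. It was detected in 43.4 to 54.5% of fibroblasts, 31.9 to 41.4% of epithelial cells and 1.67 to 8.43% of T cells, and the share of selected cells with epithelial markers moved with it. The part of those cells in the rise was not tested beyond the 327 selected cells with no epithelial marker, where the log2 ratio was 1.11 (adjusted p = 0.189). Without control library 1 the ratio was 1.10 (adjusted p = 0.103).

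Slc15a2, a peptide transporter gene that takes up bacterial di- and tripeptides (chromosome 16, 36750177 to 36784962, minus strand), had the larger fall of the 2 genes that passed. It stood at 73.3, 76.2, 5.79 and 8.09 CPM, so that replicates nearly coincided and the groups were far apart. The means were 74.8 ± 2.04 and 6.94 ± 1.63 (SD, n = 2 each) and the log2 ratio was −3.41 ± 0.338 (SE, adjusted p = 0.00218). It was detected in 39 of 290 (13.4%, exact 95% interval 9.74 to 17.9), 40 of 259 (15.4%, 11.3 to 20.4), 5 of 281 (1.78%, 0.580 to 4.10) and 8 of 270 cells (2.96%, 1.29 to 5.76). The same direction was seen outside the selection. In residents Slc15a2 stood at 44.6, 52.9, 7.23 and 6.70 CPM (log2 ratio −2.79, adjusted p = 0.000645), and the share with a count was 8.78%, 8.89%, 0 and 1.20% in T cells, 6.89%, 6.38%, 1.83% and 1.68% in epithelial cells, and 1.87%, 1.66%, 0.374% and 0.658% in fibroblasts. The fall passed when any single library was left out (log2 ratio −3.66 to −3.20), and did not pass in the 327 cells with no epithelial marker (−2.49, adjusted p = 0.301).

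Retnla, which encodes the secreted protein RELM-alpha of alternatively activated macrophages (chromosome 16, 48842551 to 48844461, plus strand), stood at 975.1, 1648, 382.0 and 344.2 CPM. The CCl4 libraries lay close together and below both controls, with means of 1312 ± 476 and 363.1 ± 26.8 (SD, n = 2 each) and a log2 ratio of −1.85 ± 0.2001 (SE, adjusted p = 0.00288). Only 10, 15, 8 and 6 cells held it. In cells led by the monocyte genes of the rule it stood at 837.4, 6899, 1785 and 1319 CPM. In those led by Cxcl2 and Il1b it stood at 976.0, 624.0, 77.0 and 91.2 CPM. One cell held 769 of 1197, 692 of 2055, 227 of 528 and 346 of 468 counts in the 4 libraries, and without that cell in each the ratio was −2.24 and did not pass (adjusted p = 0.0959). Leaving out the highest doublet scores moved the ratio to −4.15 (adjusted p = 0.319). In residents it stood at 1479, 583.7, 605.1 and 302.4 CPM, where the groups overlapped (log2 ratio −1.18, adjusted p = 0.0513).

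Muc2, the main mucin of goblet cells (chromosome 7, 141690340 to 141754693, plus strand), and Sycn, the secretory granule gene syncollin (chromosome 7, 28540885 to 28542209, plus strand), are known from epithelial cells. Sycn stayed under 50 CPM and was named after its values were seen. Muc2 stood at 34.2, 24.1, 98.4 and 89.0 CPM (log2 ratio 1.68 ± 0.253, SE, adjusted p = 0.0369) and Sycn at 10.6, 8.02, 46.3 and 47.1 CPM (2.32 ± 0.365, adjusted p = 0.0489). Muc2 was detected in 7.93%, 9.65%, 27.0% and 27.0% of the selected cells and in 5.41%, 11.7%, 34.7% and 32.5% of T cells. Sycn was detected in 2.41%, 2.70%, 12.5% and 12.96% of the selected cells and in 4.73%, 3.33%, 20.0% and 19.3% of T cells. With CCl4 both shares lay below those in T cells, at similar depth, so neither gene is read here as expressed by the selected cells. Both rose in residents as well (Muc2 adjusted p = 0.0015, Sycn 0.0016). Neither passed without control library 1 (Muc2 adjusted p = 0.0664, Sycn 0.142), without control library 2 (0.0777 for both) or with the replicate number as a block (0.0640 and 0.121).

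**Figure D4:**
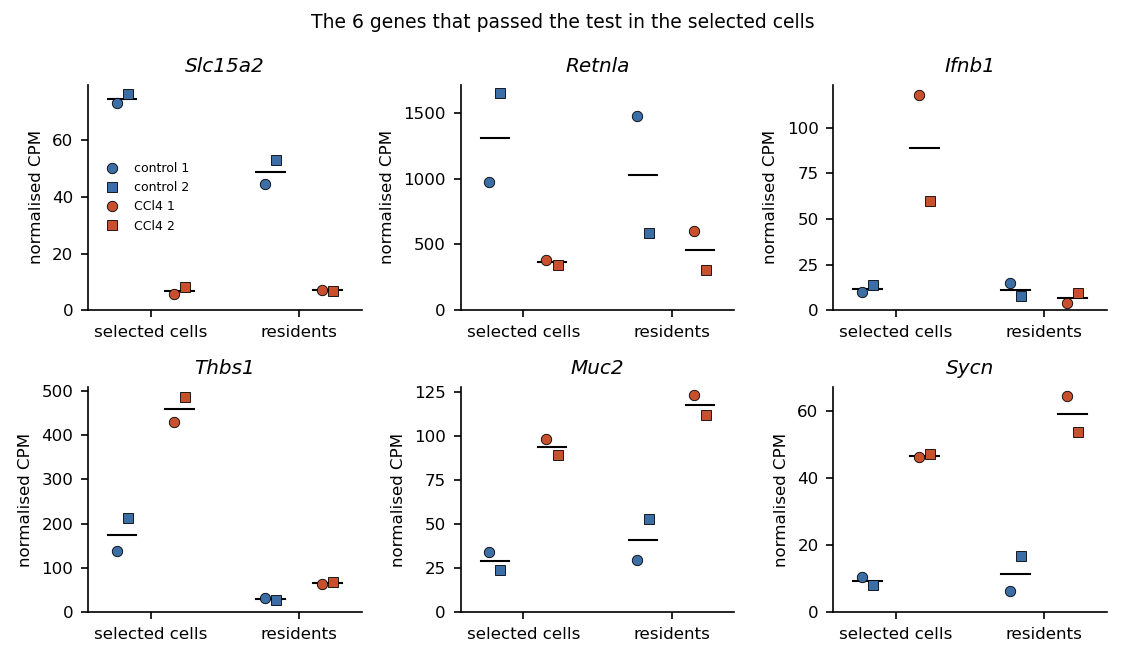
Normalised CPM per library (points) and group means (bars) of the 6 genes that passed in the selected cells, with the same genes in residents. Ifnb1 is at 117.9 and 59.6 CPM with CCl4 in the selected cells and at 4.02 and 9.57 in residents, while Slc15a2, Thbs1, Muc2 and Sycn shift the same way in both groups of cells.

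The genes that define the selection are given as levels only. The cells were picked by them, so no test result is read. Cxcl2 stood at 16627, 17685, 18823 and 15734 normalised CPM, so the groups overlapped. Il1b stood at 1258, 960.9, 1634 and 1454, with both CCl4 libraries above both controls. The monocyte genes lay the other way. Ccr2, the receptor that brings monocytes out of the marrow, stood at 311.2, 333.7, 197.5 and 188.3. Ly6c2 stood at 231.4, 83.4, 59.3 and 27.2 and Plac8 at 286.8, 191.7, 151.2 and 130.2. In residents, where Ccr2 also belongs to the rule, it stood at 84.3, 89.7, 32.9 and 28.7. Cells led by the monocyte genes of the rule were 19.3%, 16.6%, 15.7% and 13.7% of the selected cells in the same order. The part of this make-up in the lower monocyte gene levels was not tested.

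Described by list, 3 of the 24 lists of macrophage functions held a called gene, namely Ifnb1 among cytokines, Thbs1 among classical monocyte genes, and Thbs1 and Retnla among alternative activation genes. Among the 2 most abundant genes of each list, those outside the rule did not pass, except Retnla. Log2 ratios of the others ran from −0.37 for Crip1 to 0.88 for Ptgs2. Beside each list stands the number of its genes outside the rule whose CCl4 libraries both lay above or both below the controls. Over all 9250 genes these were 18.7% and 18.6%, and the median log2 ratio was 0.003. Interferon response genes leaned lower, with 18 of 53 lower and 2 higher and a median of −0.09. Isg15, a secreted ubiquitin-like protein gene, stood at 202.8, 276.7, 162.8 and 180.2 CPM (adjusted p = 0.618) and the transcription factor gene Irf1 at 167.8, 190.1, 110.7 and 120.6 (adjusted p = 0.346). Of 22 MHC class I presentation genes, 11 were lower and 0 higher (median −0.24), with H2-Q6 at 131.2, 119.5, 81.0 and 70.6 (adjusted p = 0.343), one of several near-identical class I genes. The 14 MHC class II genes had 4 higher and 2 lower (median 0.06).

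Glycolysis and hypoxia genes leaned higher, with 11 of 24 higher and 0 lower and a median of 0.17. Ddit4, an inhibitor of mTOR signalling, stood at 33.4, 34.5, 73.1 and 83.8 CPM (log2 ratio 1.21, adjusted p = 0.163), and the glycolytic gene Gapdh at 330.7, 332.1, 432.7 and 413.3 (0.35, adjusted p = 0.625). Of 28 sensing and inflammasome genes, 8 were higher and 3 lower (median −0.002). The C-type lectin receptor genes Clec4n, Clec4e and Clec4d were among the higher ones, Clec4n at 224.8, 212.6, 377.7 and 332.4 CPM (adjusted p = 0.163). Of 31 NF-kB targets, 8 were higher and 5 lower (median 0.06). Ptgs2 stood at 181.7, 304.8, 468.1 and 425.8 (0.88, adjusted p = 0.228) and the inhibitor gene Nfkbia at 2909, 2745, 2435 and 2111 (−0.31, adjusted p = 0.597). Of 15 heat shock genes, 6 were lower and 1 higher (median −0.04). Hspa1a stood at 13405, 12782, 11703 and 10442 CPM and cannot be told fully from its near-identical copy Hspa1b.

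Among 17 cytokines outside the rule, 5 were higher and 5 lower (median −0.10). Besides Ifnb1 and Il1b, oncostatin M (Osm) stood at 407.3, 528.6, 286.5 and 313.3 CPM (adjusted p = 0.268). Among 14 chemokines outside the rule, 3 were higher and 4 lower (median −0.05). Ccl17, a chemokine gene of dendritic cells that attracts CCR4-bearing T cells, stood at 4.07, 0, 40.5 and 25 CPM (adjusted p = 0.106) and Ccl6 at 582.5, 645.7, 467.4 and 422.9 (adjusted p = 0.384). At least 2 of 14 dendritic cell markers were detected in 14.5%, 15.8%, 17.1% and 22.96% of the selected cells, and their part in the Ccl17 values was not tested. Of 24 receptors outside the rule 8 were higher and 7 lower, with Il1r2 at 117.3, 126.7, 206.9 and 184.6 (adjusted p = 0.268).

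Of 17 classical monocyte genes outside the rule, 5 were lower and 3 higher (median −0.18), and Thbs1 rose. Fn1 stood at 629.7, 531.0, 333.6 and 366.2 CPM (−0.73, adjusted p = 0.123). Of 24 alternative activation and repair genes, Retnla fell, Thbs1 rose, 4 were higher and 6 lower (median −0.10). Mmp14, a membrane-bound matrix protease gene, stood at 70.9, 101.9, 136.0 and 159.6 CPM (adjusted p = 0.351), and the arginase gene Arg1 at 109.2, 20.1, 20.3 and 6.62 with overlapping groups. Of 18 macrophage maturation genes outside the rule, 7 were lower and 5 higher (median 0.06). With the 7 rule genes of that list the median was −0.07. Lower and higher were in immediate early genes 9 and 10 of 29 (median −0.001), and in nuclear oxidative phosphorylation genes 5 and 3 of 30 (median −0.07). Among markers of other cells, 5 of 7 immunoglobulin genes tested were lower with CCl4 and 4 of 12 abundant epithelial transcripts higher, including Muc2.

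**Figure D5:**
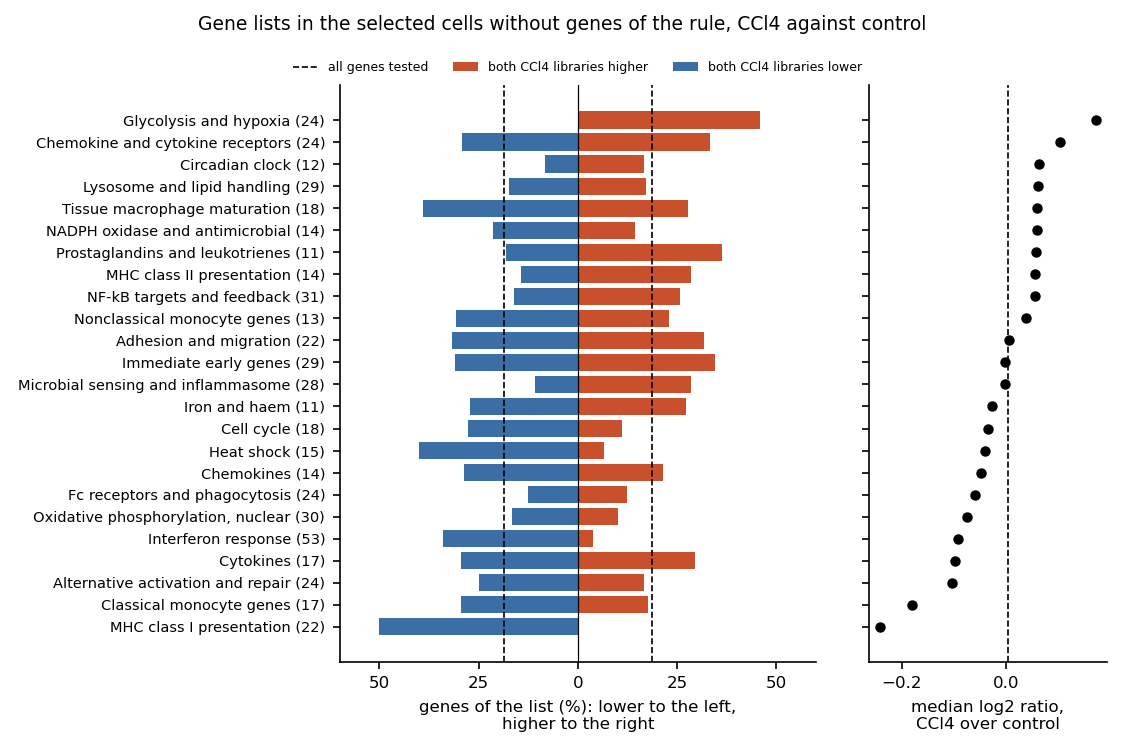
Left, percentage of the genes tested in each list without genes of the rule (number in brackets) with both CCl4 libraries above (right bars) or below (left bars) both controls, with dashed lines at 18.7% and 18.6% for all genes. Right, median log2 ratio of each list, from −0.24 for MHC class I presentation to 0.17 for glycolysis and hypoxia.

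Whether the response to CCl4 differed between the selected cells and residents was tested with a class by treatment term, and 11 of 10574 genes passed (0.104%), 3 with a higher change in the selected cells (0.0284%) and 8 with a lower one (0.0757%). Within residents alone, 62 of 9930 genes passed between CCl4 and control (0.624%), 44 higher (0.443%) and 18 lower (0.181%). Ifnb1 was among the 11 genes of the class by treatment term. Residents held it at 14.9, 7.65, 4.02 and 9.57 CPM, and the log2 change was larger in the selected cells by 3.61 ± 0.697 (SE, adjusted p = 0.0498). The difference did not pass with DESeq2 (adjusted p = 0.273), without control library 1 (2.86, adjusted p = 0.280) or without CCl4 library 1 (2.54, adjusted p = 0.366). Single resident cells held 17 of 21 counts in control library 1, 10 of 11 in control library 2 and 9 of 10 in CCl4 library 2. Hbegf, the gene of a heparin-binding growth factor of the EGF family, stood at 545.8, 544.6, 416.8 and 428.8 CPM in the selected cells and at 274.2, 322.1, 456.4 and 561.8 in residents. It rose in residents (adjusted p = 0.00508) and did not pass in the selected cells (adjusted p = 0.558), and the difference in log2 change was −1.13 ± 0.159 (SE, adjusted p = 0.00412). S100a6, a calcium-binding protein gene, stood at 800.0, 746.7, 560.0 and 560.4 CPM in the selected cells and at 248.0, 210.8, 328.7 and 336.9 in residents (difference −1.002 ± 0.151, adjusted p = 0.00524).

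The differences for a pair of genes of antigen handling were smaller. H2-Eb1, an MHC class II chain gene, stood at 5886, 5559, 6380 and 5959 CPM in the selected cells and at 6051, 6864, 5070.0 and 5237 in residents (difference 0.43 ± 0.0764, SE, adjusted p = 0.0320). Cst3, the protease inhibitor cystatin C, stood at 2700, 2273, 2708 and 2850 against 3440, 3045, 2641 and 2592 (0.47 ± 0.0845, adjusted p = 0.0320). Adamdec1, a protease gene of gut macrophages and fibroblasts, rose in residents from 39.0 and 42.4 to 103.7 and 95.7 CPM and stood at 114.1, 98.7, 96.2 and 69.1 in the selected cells (difference −1.66 ± 0.299, adjusted p = 0.0329). Gpnmb, a gene of lipid-loaded macrophages, rose in residents from 67.3 and 66.1 to 187.2 and 169.4 CPM and stood at 27.7, 59.4, 33.3 and 23.5 in the selected cells (difference −2.00 ± 0.372, adjusted p = 0.0376). With DESeq2 the differences did not pass for H2-Eb1 (adjusted p = 0.99996), Cst3 (0.458), Adamdec1 (0.443) and Gpnmb (0.355). Adamdec1 was also lost without control library 1 (adjusted p = 0.0805) and CCl4 library 2 (0.0972), Cst3 without CCl4 library 2 (0.168), and Gpnmb without control library 2 (−1.36, adjusted p = 0.277). Hbegf and S100a6 passed with DESeq2 and without any single library. With barcodes carrying 2 or more markers of another cell type left out of both groups, 0 genes passed in edgeR (168 at an unadjusted p under 0.05), and the differences for S100a6, Adamdec1 and Gpnmb changed sign. Leaving out single libraries gave 18 to 41 genes, 25 without control library 1, 41 without control library 2, 30 without CCl4 library 1 and 18 without CCl4 library 2.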

How the data were processed

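Colon cells of 2 control and 2 CCl4 libraries were profiled by droplet sequencing of polyadenylated RNA. The authors deposited raw counts for each gene in each barcode, made with PISA per the file headers, on GRCm38 per the submitters' processing notes. No aligner is named in the sources used here. Libraries held 10021 to 13986 barcodes and 55834301 to 92383719 counts, and the lowest barcode total was 1001 or 1002.

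The members and gene lists were chosen with earlier results of these data known. Counts of selected cells were summed per library and tested with edgeR 4.0.16 in R 4.3.3 (glmQLFit and glmQLFTest, TMM, filterByExpr, treatment as the only factor, Benjamini-Hochberg over all genes tested, threshold 0.05). Normalised CPM uses the TMM factors. CPM of the selected cells beside residents, and of other cell types, uses raw totals. The class by treatment test used the same tool with library as block. Its simulation on 9151 genes recovered 19 of 100 genes changed 2-fold and 56 of 100 changed 3-fold, with 1 false call. In both simulations the changed genes came only from those above a minimum mean level. Shares were compared by exact permutation over libraries. Shares of cells have exact Clopper-Pearson intervals at 95%, and a count of 0 is given an upper limit of 3 counts. Both cover counting error only. Doublets were scored with Scrublet in scanpy 1.11.5 (Python 3.11.15) and kept in the main analysis. An alternative left out the highest 6% in each library, and DESeq2 1.42.0 was another.

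Named between treatments were called genes with at least 50 CPM in either group, outside the rule and outside Gm, Rik, ribosomal, mitochondrial and antigen receptor genes, up to 12 in each direction, the called members of each list and the 2 highest members of each list. Some list members with small p were added after their values were seen. Against residents, the 15 highest and 15 lowest genes were named, and for the class by treatment test all 11 that passed. The sides of the rule led by Cxcl2 and Il1b or by monocyte genes, and the genes named for them, were chosen after the data were seen. Positions are from GENCODE M21, which held 98.3% of the 29897 gene symbols, and promoters from RefSeq.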

Additional observations from a re-analysis of the deposited data

Results flagged for a closer look

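For 11 genes the change with CCl4 differed between the selected cells and residents by the class by treatment test in edgeR. Values are log2 changes in the selected cells minus those in residents. They were −1.13 for Hbegf, −1.0 for S100a6, −1.66 for Adamdec1, −2.00 for Gpnmb, 0.43 for H2-Eb1, 0.47 for Cst3 and 3.61 for Ifnb1, whose levels are given above. Ogn, a gene of connective tissue cells, had −5.65 from 31, 34, 4 and 1 counts in the selected cells (control 1, control 2, CCl4 1, CCl4 2), where 1 cell of control library 2 held 29, and 5, 2, 15 and 6 counts in residents.

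The other 3 are genes of venules. Ackr1 had −12.85 from 83, 4, 3 and 0 counts in the selected cells, 81 of the 83 in 1 cell, and 0, 0, 57 and 5 counts in residents, 57 of them in 1 cell. Selp had −10.30 from 16, 5, 5 and 1 counts and 0, 0, 93 and 2 counts, 87 of the 93 in 1 cell. Madcam1 had −8.57 from 112, 1, 1 and 0 counts, all 112 in 1 cell, and 1, 4, 22 and 3 counts in residents. Fitted differences of this size against libraries at 0 depend on the prior count and are no measure of size.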

How the results depend on the processing

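Against the 6 genes called in the selected cells, the counts were 12 with DESeq2, 24 with the rule applied to barcodes thinned to 1000 counts, 0 without a low-count filter in edgeR (729 at an unadjusted p under 0.05), 1 without the highest doublet scores and 1 in the 219 cells left after barcodes with 2 or more markers of another cell type were removed (2799 genes tested). The 1 gene called in those 219 cells was not among the 6. A further 3 alternatives were chosen after seeing the data. Leaving out barcodes with 2 or more lymphoid, mast, stromal, endothelial or glial markers gave 22 genes, with all 6 among them. Keeping cells led by Il1b and Cxcl2 gave 16, with 5 of the 6 among them. Keeping only cells with no epithelial marker gave 6 genes of 4585 tested, with 0 of the original 6 among them. Leaving out 1 library gave 12 to 102. All 6 genes kept their direction in every alternative that gave a value. Slc15a2 was lost in 2 of 15 alternatives, Ifnb1 in 3 of 14, Thbs1 in 5 of 16, Retnla in 5 of 16, Muc2 in 9 of 16 and Sycn in 9 of 15. Alternatives that gave no value for a gene were not counted, either as kept or as lost. Slc15a2, Ifnb1 and Sycn had none after the removal of barcodes with markers of another cell type. Ifnb1 also had none in the cells with no epithelial marker. With the library number as a replicate block 9 genes were called, 4 of them among the 6. Same-numbered libraries did not deviate together (correlation −0.00137), so the numbers are not treated as pairs.

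Against 11 genes of the class by treatment test, DESeq2 gave 3, no low-count filter 35, the removal of barcodes with other markers 0, and leaving out 1 library 18 to 41. In that removal S100a6 turned to 0.13, Adamdec1 to 0.14 and Gpnmb to 2.01. The causes were not tested. The share of kept barcodes turned to 0.173 points with barcodes lacking Epcam as the denominator, and the share of myeloid barcodes turned to −0.984 points with that removal. After thinning to 1000 counts a cell, the mean share with a count was 80.4% for Cxcl2, 34.7% for Il1b, 2.82% for Ly6c2, 8.36% for Plac8 and 89.4% for Lyz2, against 83.8%, 49.0%, 5.30%, 17.3% and 95.7% unthinned. No selected cell was too shallow for thinning.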
